A study of Arabidopsis thaliana with 69 samples.

Results

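Cytochrome P450 genes were read in dark-grown Arabidopsis thaliana cultures after activation of VND7, a transcription factor that turns cells into xylem vessel elements. Cytochromes P450 are haem enzymes, most of them anchored in the endoplasmic reticulum, that take electrons from a P450 reductase and use oxygen to hydroxylate small molecules. Plants use them to make lignin precursors, hormones, cuticle lipids and defence compounds, and the CYP71B subfamily is known for genes that lie side by side as tandem copies. A CYP number names a family, the letter after it a subfamily and the last number a gene.

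The members were all probe sets that name a single gene whose symbol is CYP followed by a digit. The rule found 26 probe sets, each for a different gene, among the 13513 that name a single gene and the 22810 on the ATH1 array. RefSeq describes 24 of the 26 as cytochrome P450 genes. The other 2, CYP59 and CYP71, are cyclophilins, protein-folding enzymes that share the letters CYP by coincidence of naming, and they are described apart. Of the 24 P450 genes, 19 belong to subfamily CYP71B. The families CYP51, CYP78, CYP79, CYP84 and CYP718 each gave 1 gene, namely CYP51G2, CYP78A9, CYP79A2, CYP84A4 and CYP718. RefSeq lists 236 Arabidopsis genes with a CYP symbol and a P450 description, and those without a single-gene probe set named here were not analysed here. The results are therefore mostly about CYP71B.

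All cultures were of ecotype Col-0, and per the labels the fusion was driven by the 35S promoter, which is active in most cell types. Seedlings were grown in liquid medium in darkness, and the labels name hypocotyl as the tissue. The VND7 line carried VND7-VP16-GR, in which VND7 is joined to the VP16 activation domain and to the steroid-binding domain of the glucocorticoid receptor (GR). Dexamethasone (DEX), a synthetic steroid given at 10 µM, lets such a protein enter the nucleus. There were 3 DEX arrays at each of 1, 3, 6, 9, 12, 24, 30 and 48 h, against 3 arrays of cultures given the solvent DMSO at the same times, and 3 more DMSO arrays at 0 h. The empty vector line had a VP16-GR construct that lacks VND7, and it was measured with DEX and with DMSO at 9, 12 and 24 h, 3 arrays each. That makes 69 arrays, 51 from VND7 cultures and 18 from empty vector cultures. The number of independent transformants behind each line is not given in the sources used here.

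Signals are log2 values from GCRMA, a method that estimates 1 level per probe set from its probes. The lowest value on every array, the floor, was 2.14, and a value less than 0.3 above it is called at the floor. A probe set was called when limma's Benjamini-Hochberg adjusted p was under 0.05 and its log2 change was at least 1. Standard errors are those of the limma fit over all arrays, and SD is the spread of 3 arrays. A lower signal in a bulk sample can mean fewer cells of a type or less RNA per cell, which cannot be told apart here.

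Some arrays of the VND7 line did not sit with their treatment label. By their correlation with the other arrays 10 were out of place. Of these, 6 carried a DEX label (1 h replicates 2 and 3, 24 h replicate 2, and all 3 at 48 h) and 4 a DMSO label (0 h replicate 3, 1 h replicate 2, 6 h replicate 2 and 24 h replicate 1). The mean signal of the 5 measured xylem vessel markers, of 14 listed, was 8.37 to 12.68 on the 18 DEX arrays in place, against 4.69 to 5.38 on the 23 DMSO arrays in place. It was 4.99 to 6.68 on the 6 out-of-place DEX arrays and 7.12 to 10.44 on the 4 out-of-place DMSO arrays. In the empty vector line it was 4.81 to 4.93 with DEX and 4.66 to 4.95 with DMSO. IRX15, a xylan gene of that list, was at the floor on all DMSO arrays in place. The comparisons at 1, 6, 24 and 48 h hold such arrays. The placement reads the treatment label alone, not the time label. DEX replicate 2 of 3 h had DEX replicate 1 of 12 h as its nearest array (correlation 0.995). DEX replicate 2 of 12 h had DEX replicate 1 of 3 h (0.992). These arrays sat with their treatment label and are not among the 10. A fit without all 10 arrays out of place, a setting chosen after the data were seen, is given beside the values it moves. The 10 were picked by their expression, so leaving them out can by itself widen a difference and lower the pooled spread. A call in that fit is no further test.

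Other tissue markers moved as well. The summed signal of the 2 measured green tissue markers, of 4 listed, was 11.7 to 20.4 on DEX arrays in place, against 23.0 to 25.2 on DMSO arrays in place. That of the 3 measured root hair markers, of 5 listed, was 11.8 to 18.8 on DEX arrays in place, against 9.19 to 11.5 on DMSO arrays in place. Over all 69 arrays the median signal of these 3 was 4.92 for the expansin EXPA18, 2.93 for the cellulase GH9C1 and 2.80 for the expansin EXPA7, which was at the floor on 19 arrays. The single phloem marker measured, OPS, ran from 2.50 to 3.95 on DEX arrays in place and from 2.74 to 4.11 on DMSO arrays in place. No endodermis or epidermis marker was measured. The part of these tissues in the P450 results was not tested.

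Of the 24 P450 genes, 14 were off the floor in at least 1 group, and 10 had a group mean at the floor everywhere. On all 69 arrays 6 of them were at the floor: CYP71B16, CYP71B22, CYP71B30P, CYP71B31, CYP78A9 and CYP79A2. CYP79A2 makes the oxime precursor of benzylglucosinolate from phenylalanine, CYP78A9 promotes fruit and seed growth, and CYP71B31 oxidises the floral terpenoid linalool. The other 4 at the floor in every group mean were the pseudogenes CYP71B27 and CYP51G2, with CYP51G2 a relative of the sterol 14-demethylase gene, and the genes CYP71B21 and CYP71B36. A floor value does not show that a gene was silent. CYP71B25 and CYP71B38 were at the floor on 63 and 61 of the 69 arrays, with highest values of 3.31 and 2.95. CYP71B35 was at the floor on 1 array and reached 3.29 at most. None of these 3 was called.

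The P450 genes changed after VND7 activation in 3 patterns. CYP71B34, CYP71B28 and CYP71B37 were first called lower with DEX at 3 h. Of these, CYP71B37 was not called at 6 h, and CYP71B28 was no longer called at 30 h. CYP718 was higher with DEX between 6 and 12 h. CYP71B23, CYP71B24 and CYP71B26 were higher with DEX at 30 h. A last gene, CYP84A4, responded to DEX in the empty vector line and was not called in the VND7 line. In the DEX against DMSO comparisons of either line, 16 of the 24 were never called.

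At 3 h limma called 0 P450 genes up and 3 down of 24, in a comparison where 27.8% of all 22746 probe sets were called, 10.4% up and 17.4% down. At 6 h it called 1 up and 2 down, where 22.5% of all were called, 9.85% up and 12.7% down. At 9 h it called 1 up and 3 down, where 29.5% of all were called, 11.8% up and 17.7% down. At 12 h it again called 1 up and 3 down, where 22.2% of all were called, 8.94% up and 13.2% down. At 30 h it called 3 up and 2 down, where 28% of all were called, 12.7% up and 15.2% down. The called share of the 24 P450 genes at these times ran from 12.5% to 20.8%, with 10 of them at the floor and not called. Of the 14 off the floor 21.4% to 35.7% were called, beside 27.4% to 36.4% of all probe sets off the floor, with 28.6% beside 27.4% at 12 h and 35.7% beside 34.6% at 30 h. The number of P450 calls is therefore not a result about the family. Centring each array on its median would shift the median over all probe sets by 0.43 to 0.58 at these times, and the share of rises among all calls at 9 h to 63.5% from 40%. The P450 split would then be 2 up and 2 down at 3 h, 1 up and 2 down at 9 h, 1 up and 1 down at 12 h, and 4 up and 1 down at 30 h. The median log2 change was 0 over the P450 genes and 0 over all probe sets at every time.

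At 1, 24 and 48 h limma called 0 P450 genes. The share of all probe sets called was 0.0132% at 1 h, 4.35% at 24 h and 0.0044% at 48 h. At an unadjusted p under 0.05 there were 2 of the 24 P450 genes at 1 h, beside 1765 of all 22746 probe sets. There were 4 beside 5215 at 24 h, and 0 beside 1580 at 48 h. Without the arrays out of place 6 were called at 24 h, where 30.4% of all probe sets were called. At 1 h only 1 DEX array then remained, replicate 1, so no count is given. Its nearest array was DEX replicate 2 of 30 h (correlation 0.990), and its xylem marker mean was 11.78. No DEX array remained at 48 h.

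**Figure D1:**
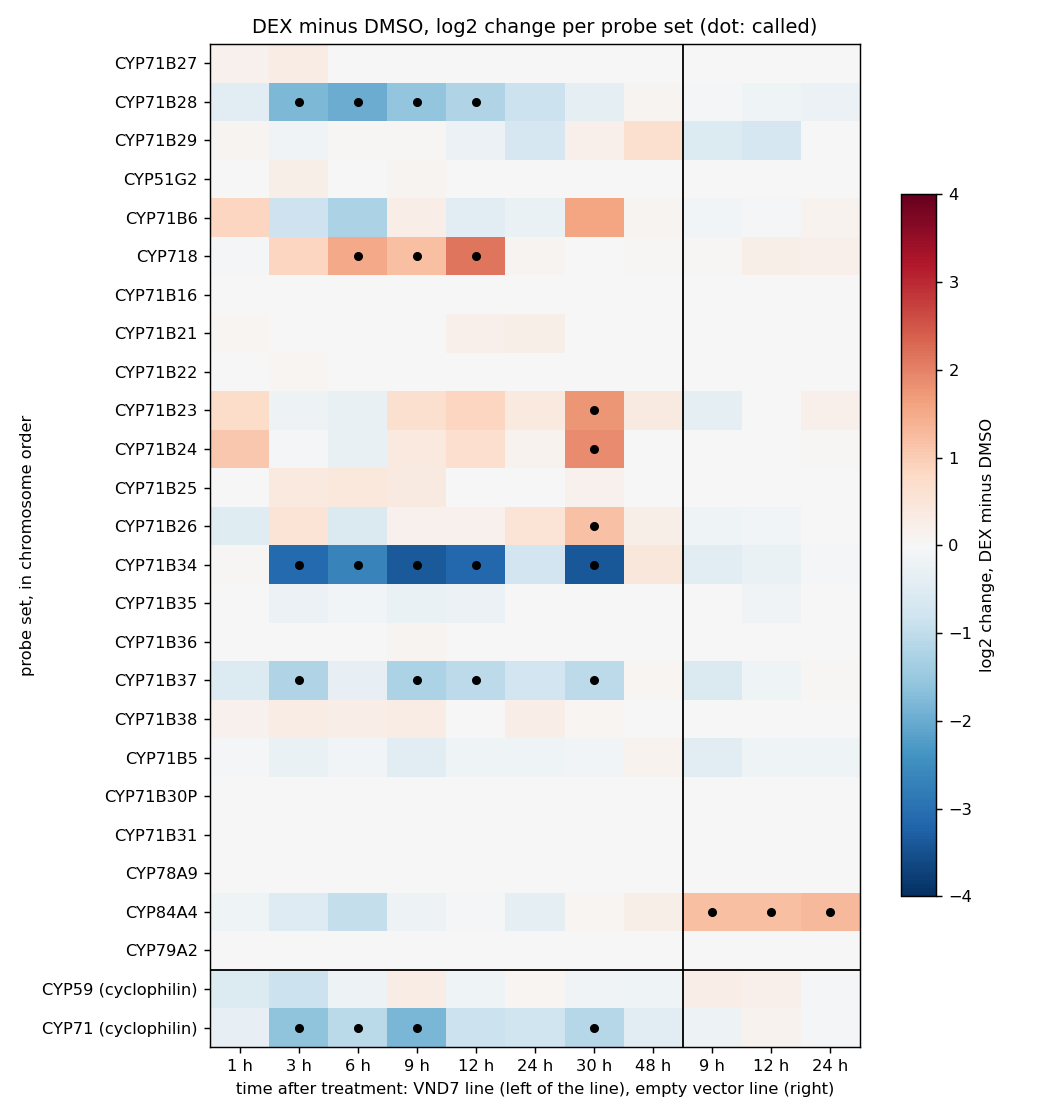
Log2 change of each probe set, DEX minus DMSO, in colour, with times in columns and genes in chromosome order in rows, the 2 cyclophilins at the bottom. Dots mark limma calls. CYP71B34 has the deepest falls, down by 3.38 at 30 h, and the 3 dots of the empty vector line all belong to CYP84A4.

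CYP71B34 had the largest changes of the 24 P450 genes between DEX and DMSO. At 9 h its signal was 4.50, 4.07 and 4.13 on the DEX arrays, against 7.62, 7.14 and 8.01 on the DMSO arrays. The groups did not overlap, as for 50.7% of all probe sets at 9 h. The difference was -3.36 ± 0.72 (log2, SE), a 10.3-fold lower signal, with a limma adjusted p of 0.000146.

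The fall of CYP71B34 was there at 3 h, with 5.07, 4.74 and 4.07 on DEX arrays, against 7.78, 7.88 and 7.51 on DMSO arrays, a difference of -3.10 ± 0.72 (limma adjusted p 0.000462). At 12 h the difference was -3.15 and at 30 h -3.38 (limma adjusted p 0.000503 and 0.000407). On 5 arrays CYP71B34 held the very same value, 4.07, and 4 of these were DEX arrays of the VND7 line. The effect at 30 h minus that at 9 h was -0.02 ± 1.01 (limma adjusted p 1).

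The 6 h and 24 h values of CYP71B34 turned on arrays out of place. At 6 h it read 4.35, 3.98 and 4.07 with DEX, against 8.14, 4.63 and 7.62 with DMSO, where the 4.63 is the out-of-place replicate 2. The difference was -2.67 ± 0.72 (limma adjusted p 0.00275), and -3.75 without that array. Without DMSO replicate 1 at 6 h it was -1.99. At 24 h it read 4.80, 7.30 and 5.02 with DEX, against 4.07, 7.44 and 7.93 with DMSO, and the groups overlapped. The difference there was -0.77 (limma adjusted p 0.602). It was -2.78 without the arrays out of place (limma adjusted p 2.73e-09), on DEX replicates 1 and 3 against DMSO replicates 2 and 3. The arrays left out were picked by their expression, so the second value is no further test.

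The 3 DMSO arrays with the highest xylem marker signal among those out of place had the lowest CYP71B34 values of any DMSO array. They were 5.16 at 1 h, 4.63 at 6 h and 4.07 at 24 h. On the 3 DEX arrays of 48 h, where the xylem markers were low, CYP71B34 read 8.23, 7.81 and 8.37, against 7.68, 7.88 and 7.52 with DMSO. On these 6 arrays a low xylem marker signal came with a high CYP71B34 value and a high marker signal with a low one, whatever the label.

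CYP71B28 fell early and lay close to the DMSO level at 30 h. At 6 h its signal was 3.91, 3.94 and 3.91 with DEX, against 5.68, 6.31 and 5.68 with DMSO, with no overlap, as for 33.8% of all probe sets. The difference was -1.97 ± 0.20 (limma adjusted p 4.08e-11), a 3.92-fold lower signal, and -1.76 without the out-of-place DMSO replicate 2, the array at 6.31. It had the smallest SE of the called P450 genes. Some of its values recurred exactly, 5.68 on 8 arrays and 3.91 on 4, and their part in the small SE was not tested.

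The change of CYP71B28 was -1.79 at 3 h, -1.97 at 6 h, -1.57 at 9 h and -1.20 at 12 h, all called by limma. It was -0.87 at 24 h, under the fold minimum (limma adjusted p 0.00476), and -0.36 at 30 h (limma adjusted p 0.156). At 9 h the values were 3.91, 3.91 and 4.50 with DEX, against 5.68, 5.68 and 5.68 with DMSO. At 30 h they were 5.14, 5.16 and 5.45 with DEX, against 5.69, 5.45 and 5.68 with DMSO. The DEX effect at 30 h exceeded that at 9 h by 1.22 ± 0.28 (limma adjusted p 0.00363), in a comparison that called 4.46% of all probe sets and 1 of the 24 P450 genes. With arrays centred on their median this difference was 1.10 with an adjusted p of 0.0502, and the 12 h change was -0.71.

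CYP71B37 lay low in all groups and reached the floor with DEX. At 9 h it read 2.49, 2.19 and 2.14 with DEX, against 3.52, 3.49 and 3.58 with DMSO. The groups did not overlap, and the difference was -1.26 ± 0.29 (limma adjusted p 0.000348). It was -1.20 at 3 h, -1.05 at 12 h and -1.05 at 30 h, where all 3 DEX arrays were exactly at 2.14. A signal at the floor cannot fall further, so these changes are bounded by it.

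At 6 h CYP71B37 was at the floor on all 3 DEX arrays, against 2.58, 2.14 and 2.65 with DMSO, and was not called (-0.32). The 2.14 is the out-of-place replicate 2, and the change was -0.48 without it, also not called. The DMSO 0 h arrays read 2.65, 2.78 and 2.14, the last of these out of place. The calls of CYP71B37 were lost when arrays were centred on their median, with changes of -0.56 to -0.71 at 3, 9, 12 and 30 h. They were also lost at 12 h without DMSO replicate 1 (-0.90) or DMSO replicate 2 (-0.87), and at 30 h without DMSO replicate 2 (-0.87).

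CYP718, the single member of its family here, rose. At 12 h its signal was 4.87, 3.04 and 5.35 with DEX, against 2.28, 2.28 and 2.28 with DMSO. All DEX arrays lay above all DMSO arrays, as either direction did for 41.4% of all probe sets, and the difference was 2.14 ± 0.42 (limma adjusted p 8.58e-05), a 4.40-fold higher signal. The DMSO arrays were at the floor, so a larger difference could not be seen. DEX replicates 1 and 3 of 12 h, with the higher CYP718 values, were each other's nearest arrays. Their xylem marker means were 8.59 and 8.37, against 12.63 on DEX replicate 2. The nearest array of that replicate 2 was DEX replicate 1 of 3 h.

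At 6 h CYP718 read 3.44, 3.62 and 4.35 with DEX, against 2.28, 2.28 and 2.28 with DMSO, a rise of 1.52 ± 0.42 (limma adjusted p 0.00368). At 9 h it read 2.28, 5.10 and 3.24 with DEX, against 2.56, 2.14 and 2.28 with DMSO. Here the groups overlapped, and the call (1.21, limma adjusted p 0.0162) was lost without DEX replicate 2 (0.43) or DMSO replicate 2 (1.12). At 3 h 1 DEX array, at 4.63, stood above the other 2, at 2.32 and 2.46, and the change of 0.87 was not called. That array, replicate 2, had a xylem marker mean of 8.40 and DEX replicate 1 of 12 h as its nearest array. DEX replicate 2 of 9 h, at 5.10, had a marker mean of 12.54. The part of these array differences in the CYP718 values was not tested. From 24 h on no DEX array was above 2.65. The effect at 30 h minus that at 9 h was -1.21 ± 0.60 and did not pass (limma adjusted p 0.237).

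**Figure D2:**
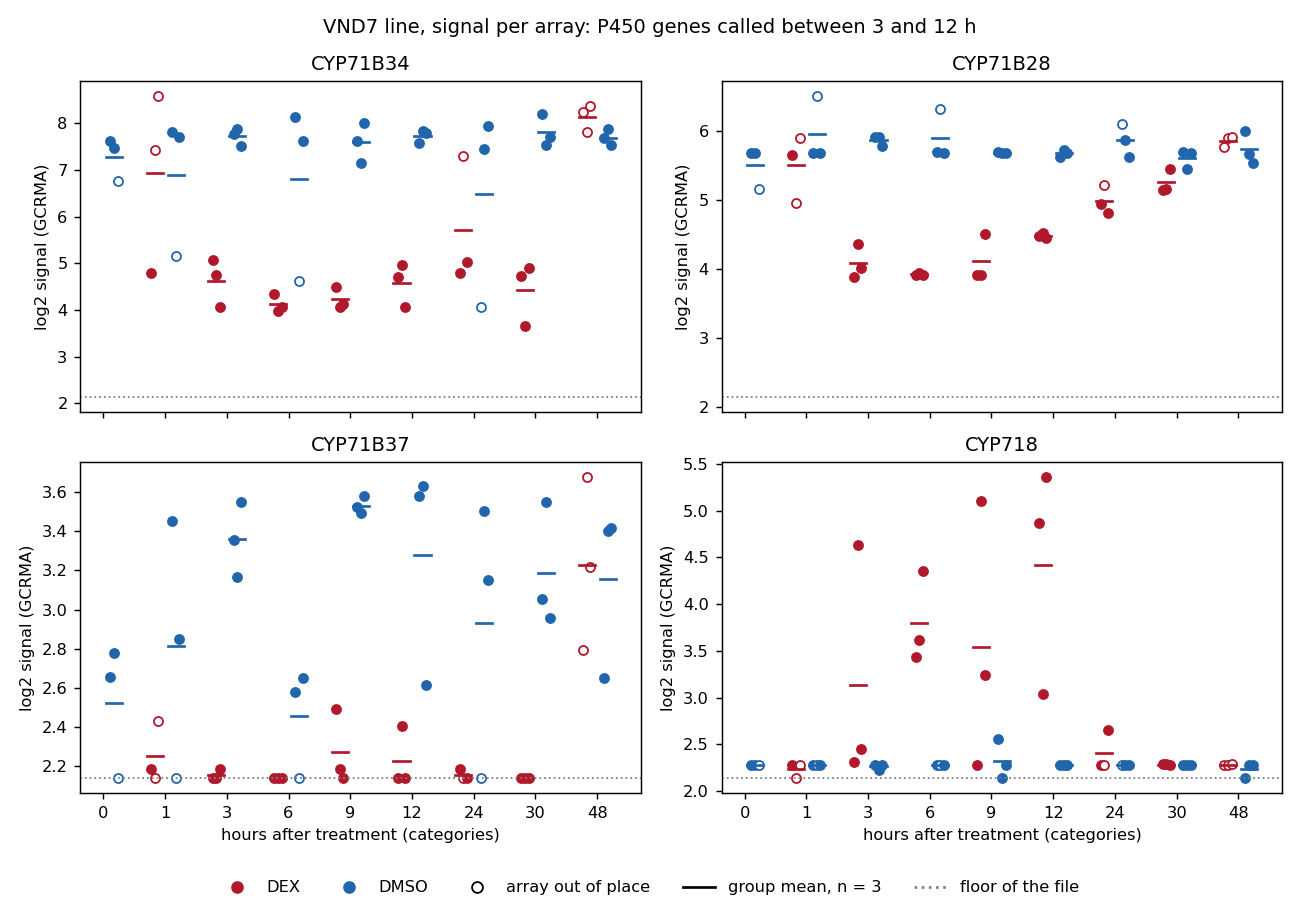
Log2 signal per array of CYP71B34, CYP71B28, CYP71B37 and CYP718 in the VND7 line by hours after treatment, DEX in red and DMSO in blue, with group means as lines and open symbols for arrays out of place. CYP71B28 on DEX arrays is near 3.92 at 6 h and 5.25 at 30 h on average, while CYP71B34 averages 4.43 at 30 h.

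At 30 h 3 CYP71B genes rose. CYP71B23 read 9.41, 9.85 and 10.32 with DEX, against 8.03, 8.55 and 7.70 with DMSO, an increase of 1.76 ± 0.62 (limma adjusted p 0.0198). CYP71B24 read 3.89, 5.40 and 4.40 with DEX, against 2.23, 3.59 and 2.23 with DMSO, an increase of 1.88 ± 0.77 (limma adjusted p 0.0467). CYP71B26 read 5.86, 4.55 and 5.31 with DEX, against 3.88, 4.14 and 4.13 with DMSO, an increase of 1.18 ± 0.39 (limma adjusted p 0.0142).

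For each of the 3 the DEX and DMSO arrays did not overlap at 30 h, as for 48.7% of all probe sets. CYP71B24 and CYP71B26 often held a recurring value: CYP71B24 held exactly 2.23 on 33 of the 69 arrays and CYP71B26 exactly 4.13 on 24. At 9 h the changes were 0.64 for CYP71B23, 0.39 for CYP71B24 and 0.16 for CYP71B26, none of them called. The effect at 30 h minus that at 9 h did not pass the test for any of the 3 (1.12, 1.49 and 1.02, limma adjusted p 0.544, 0.498 and 0.301), so a difference between these times is not shown. Leaving out the arrays out of place, none of them from 9 or 30 h, kept the 1.02 of CYP71B26. It then passed through a smaller pooled spread alone (limma adjusted p 0.00887).

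Each of these calls was lost without some arrays. CYP71B23 was lost without DEX replicate 3 (1.54) or DMSO replicate 3 (1.56), and CYP71B26 without DEX replicate 1 (0.87). CYP71B24 was lost without DEX replicate 2 (1.46), DEX replicate 3 (1.96), DMSO replicate 1 (1.65) or DMSO replicate 3 (1.65). None of the arrays out of place is from 30 h, so leaving them out kept these changes and lowered only the pooled spread. All 3 then passed, with limma adjusted p of 0.00028, 0.000221 and 5.88e-06. That spread follows from a choice of arrays made after the data were seen, so this is no further test of the calls.

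CYP71B6, which can metabolise indole-3-acetonitrile, had similar values. At 30 h it read 9.89, 11.26 and 10.66 with DEX, against 8.73, 9.54 and 8.83 with DMSO, without overlap. Its change was 1.57 ± 0.68 and was not called (limma adjusted p 0.0617). Without the arrays out of place the change was the same and passed through a smaller pooled spread alone (limma adjusted p 0.000592). At 24 h and without those arrays CYP71B6, CYP71B23, CYP71B24 and CYP71B26 were all called up, by 1.43, 1.53, 1.76 and 1.18, and CYP71B34 and CYP71B37 were called down.

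The out-of-place DMSO arrays of 1, 6 and 24 h carried high values of CYP71B6, CYP71B23 and CYP71B24. CYP71B6 read 11.09 at 1 h, 11.22 at 6 h and 11.68 at 24 h on them, and CYP71B23 read 10.46, 10.59 and 10.40. CYP71B26 read 6.34, 5.90 and only 4.42. CYP71B29, which was never called, was high on them as well, at 6.93, 6.79 and 6.99. DEX replicate 3 of 1 h had the highest CYP71B6 (12.00) and CYP71B24 (6.58) of all 69 arrays. Its xylem marker mean was only 4.99, and its CYP71B34 was the highest of all at 8.58. High CYP71B6 and CYP71B24 and low CYP71B34 therefore did not go together on every array.

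Fitted on the compared arrays alone, so that the spread comes from 6 arrays, some VND7-line calls were lost. The changes stayed as they were, and the limma adjusted p was 0.18 for CYP71B34 at 6 h, 0.307 and 0.0911 for CYP718 at 9 and 12 h, 0.0882 for CYP71B37 at 12 h, and 0.0634 and 0.063 for CYP71B24 and CYP71B26 at 30 h.

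**Figure D3:**
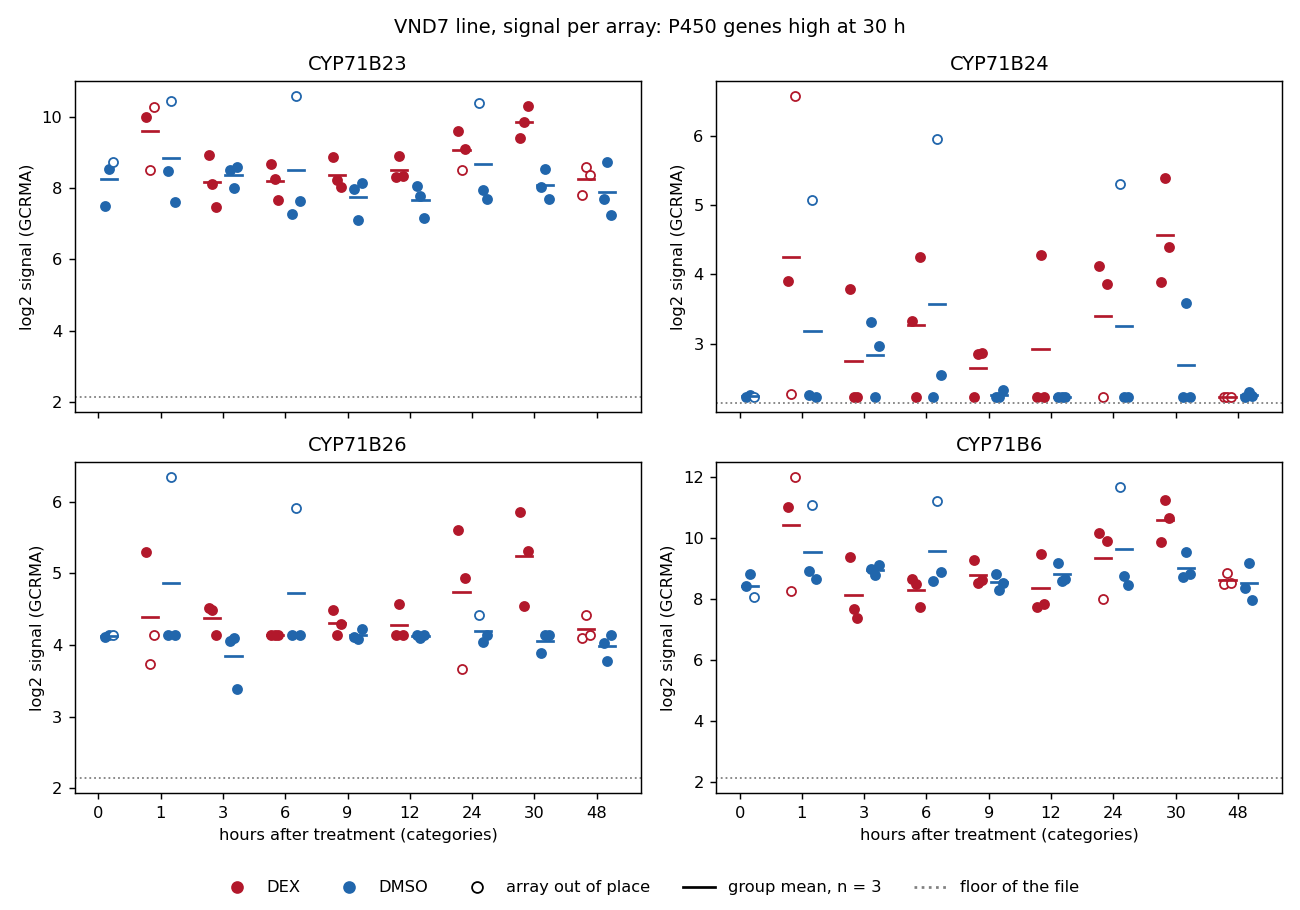
Log2 signal per array of CYP71B23, CYP71B24, CYP71B26 and CYP71B6 in the VND7 line by hours after treatment, DEX in red and DMSO in blue, with group means as lines and open symbols for arrays out of place. At 30 h all DEX arrays lie above all DMSO arrays for each gene. The open blue symbols at 1, 6 and 24 h are high for CYP71B23 and CYP71B6.

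The CYP71B genes lie in runs of neighbours, here taken as P450 genes with at most 3 other genes between them in RefSeq's order. One run on chromosome 3 has 8 P450 genes, 6 of them measured here, in the order CYP71B25, CYP71B26, CYP71B34, CYP71B35, CYP71B36 and CYP71B37, with CYP71B4 and CYP71B33 among them not analysed here. At 30 h the changes along it were 0.18, 1.18, -3.38, -0.03, 0 and -1.05. Genes called in opposite directions were therefore near neighbours: CYP71B26 up, CYP71B34 down.

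Another run on chromosome 3 has 10 P450 genes, 5 of them measured here. CYP71B23 and CYP71B24 rose at 30 h, while CYP71B16, CYP71B21 and CYP71B22 were at the floor in every group. On chromosome 1, CYP71B28 has CYP71B29 as its neighbour and CYP71B27 in the same run. CYP71B29 was well above the floor, from 4.91 to 6.99 over all arrays, and was never called, with changes of -0.66 to 0.64 over the 8 times. Of the chromosome 3 trio CYP71B5, CYP71B30P and CYP71B31, only CYP71B5 was off the floor. It was not called, with changes of -0.43 to 0.15. Without the arrays out of place its change at 1 h was -0.99, from the only DEX array left there. Probes of tandem copies can pick up each other's transcripts, which was not tested here.

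**Figure D4:**
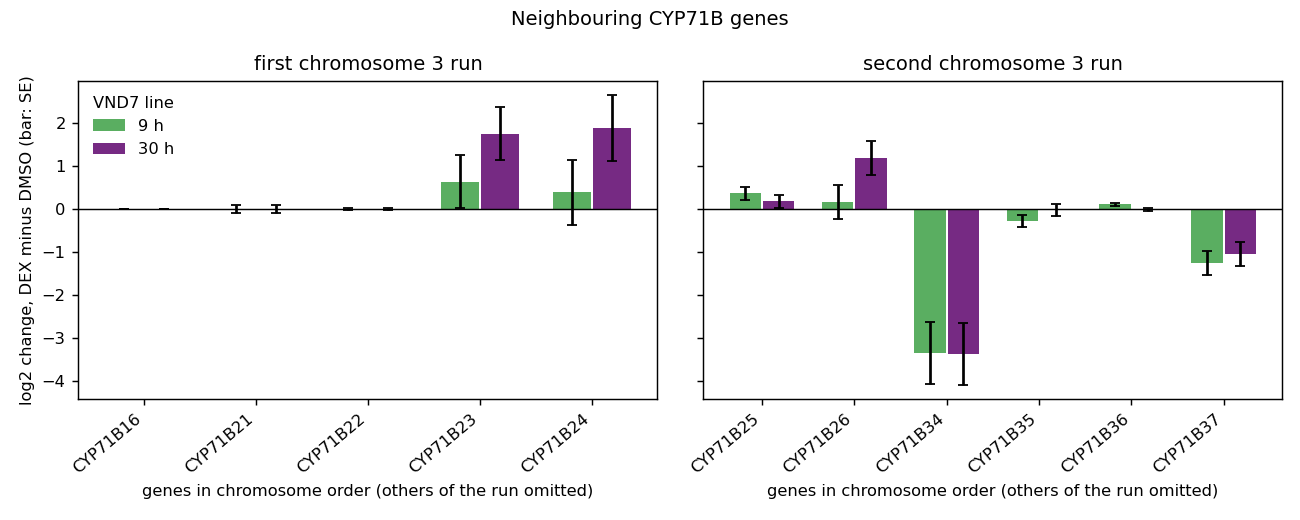
Log2 change, DEX minus DMSO, at 9 h and 30 h in the VND7 line for the measured genes of the 2 runs on chromosome 3, in chromosome order, with the SE of the limma fit as error bars. CYP71B34 is down at both times, by 3.36 and 3.38, and is drawn beside CYP71B26, which is up by 1.18 at 30 h.

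In the empty vector line limma called 1 P450 gene at each time, CYP84A4, which rose. Of all probe sets 0.0835% were called at 9 h (0.0703% up), 0.0879% at 12 h (all of them up) and 0.123% at 24 h (0.0923% up). CYP84A4 is a relative of the ferulate 5-hydroxylase of lignin synthesis and works in the synthesis of arabidopyrones, which are phenylpropanoid-derived pyrones. At 9 h it read 5.26, 5.72 and 5.79 with DEX, against 4.76, 4.18 and 4.20 with DMSO, an increase of 1.21 ± 0.21 (limma adjusted p 0.00106). At 12 h it read 5.67, 5.66 and 5.35 with DEX, against 4.36, 4.49 and 4.23 with DMSO (1.20, limma adjusted p 0.00136). At 24 h it read 4.78, 5.07 and 4.86 with DEX, against 3.16, 3.50 and 4.12 with DMSO (1.31, limma adjusted p 0.000237). The groups did not overlap at any of the 3 times, as for 11.1%, 6.3% and 10.4% of all probe sets.

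These calls rest on a spread taken over all 69 arrays. Fitted on the compared arrays alone, the same changes had limma adjusted p of 0.298, 0.226 and 0.356. With arrays centred on their median the 12 h change was 1.15 with an adjusted p of 0.0695. The highest of the 51 arrays of the VND7 line was 4.29, below all 9 DEX arrays of the empty vector line, which ran from 4.78 to 5.79.

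In the VND7 line CYP84A4 did not rise with DEX. At 9 h it read 2.85, 2.89 and 2.89 with DEX, against 3.13, 2.98 and 3.15 with DMSO (-0.21, limma adjusted p 0.519). At 6 h it was lower without reaching the fold minimum, with 2.60, 2.60 and 2.71 with DEX, against 3.31, 4.29 and 3.14 with DMSO (-0.95, limma adjusted p 0.00039). The 4.29 is the out-of-place replicate 2, and without it the change was -0.59 (limma adjusted p 0.0188). The effect in the VND7 line minus that in the empty vector line was -1.42 ± 0.30 at 9 h, -1.24 ± 0.30 at 12 h and -1.71 ± 0.30 at 24 h (limma adjusted p 0.000432, 0.00315 and 0.00171). With arrays centred on their median these differences were -0.86, -0.71 and -1.47 (limma adjusted p 0.0459, 0.111 and 0.0739), and none was called. The 24 h difference was -1.49 without the arrays out of place, and on the compared groups alone it did not pass (limma adjusted p 0.1). The DMSO means of CYP84A4 at 9, 12 and 24 h were 3.09, 3.01 and 3.30 in the VND7 line and 4.38, 4.36 and 3.59 in the empty vector line. The DMSO arrays of the lines overlapped at 24 h, and the difference between them was not tested.

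**Figure D5:**
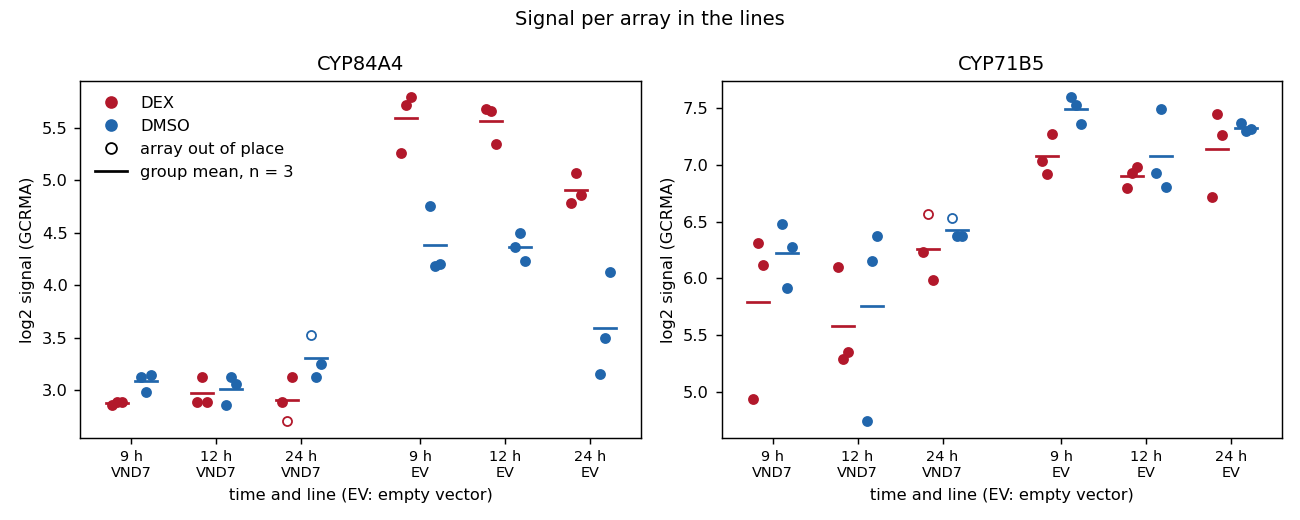
Log2 signal per array of CYP84A4 and CYP71B5 at 9, 12 and 24 h in the VND7 line and the empty vector line (EV), DEX in red and DMSO in blue, with group means as lines and open symbols for arrays out of place. CYP84A4 averages 5.59 with DEX and 4.38 with DMSO at 9 h in the empty vector line, and CYP71B5 is higher in that line in either treatment.

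The other changes of the VND7 line were set against the empty vector line at the shared times. The difference of the DEX effects called 3 P450 genes at 9 h, all lower, where 22.9% of all probe sets were called, 9.84% higher and 13.1% lower. It called 1 higher and 3 lower at 12 h, where 13.4% of all were called, 6.01% higher and 7.43% lower. At 24 h it called 1 lower, where 0.303% of all were called, 0.167% lower. For CYP71B34 the effect was -3.36 in the VND7 line and -0.45 in the empty vector line at 9 h, a difference of -2.91 ± 1.01 (limma adjusted p 0.0264). It did not pass without DMSO replicate 3 of the VND7 line (-2.70), or without DEX replicate 3 (-2.77) or DMSO replicate 3 (-2.81) of the empty vector line. At 12 h the difference was -2.88 ± 1.01 (limma adjusted p 0.0424), and leaving out any of 11 of the 12 arrays compared raised the adjusted p above 0.05, to at most 0.0854.

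For CYP71B28 the difference of effects was -1.52 ± 0.28 at 9 h and -1.02 ± 0.28 at 12 h (limma adjusted p 6.5e-05 and 0.00806). With arrays centred on their median it was -0.96 at 9 h and -0.49 at 12 h, under the fold minimum. The 12 h value also went under it, to between -0.90 and -0.998, without DMSO replicate 2 of the VND7 line, or without DEX or DMSO replicates 2 or 3 of the empty vector line. For CYP718 it was 1.89 ± 0.60 at 12 h (limma adjusted p 0.0229) and 1.17 ± 0.60 at 9 h, which did not pass (limma adjusted p 0.143). The 12 h difference of CYP718 was 2.58 without DEX replicate 2 of the VND7 line. It did not pass without DEX replicates 1 (1.67) or 3 (1.42) of the VND7 line, or without DEX replicates 1 (1.82) or 2 (1.71) of the empty vector line. At 24 h, without the arrays out of place, the difference called 5 P450 genes, where 27.5% of all probe sets were called. CYP71B24 and CYP71B26 were higher, and CYP71B34, CYP71B37 and CYP84A4 lower.

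The cyclophilin CYP71, a WD40-repeat protein known to act on chromatin, fell in the VND7 line. At 9 h it read 4.77, 5.06 and 4.81 with DEX, against 6.33, 7.01 and 6.78 with DMSO, a change of -1.83 ± 0.32 (limma adjusted p 9.04e-06). It was also called down at 3, 6 and 30 h (-1.60, -1.09 and -1.14), and in the difference of effects at 9 h (-1.63, limma adjusted p 0.00619). The 3 h call was lost on the compared arrays alone (limma adjusted p 0.139). Centring the arrays took the 6 h and 30 h changes to -0.65 and -0.71, under the fold minimum, and they also did not pass without DEX replicate 3 at 6 h (-0.91) or DEX replicate 1 at 30 h (-0.98). CYP59, a nuclear cyclophilin that binds RNA, was not called, with changes of -0.85 to 0.30.

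Genes of the pathways that hold P450 enzymes were measured in part. None of the 10 listed redox partners and scaffolds of P450 enzymes, and none of the listed gibberellin or jasmonate enzymes outside the P450 genes, was named by a single-gene probe set here. Of 17 listed glucosinolate and camalexin enzymes 4 were measured, and 3 of these fell at 3 h, where 17.4% of all probe sets were called down: BCAT4, which starts methionine-derived glucosinolates (-4.19, limma adjusted p 0.0125), the glucosyltransferase UGT74B1 (-1.85) and AT2G31790 (-2.50). Of the 4, 1 was called down at 6 h, 0 at 9 h, 2 at 12 h and 1 at 30 h.

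Of 8 listed flavonoid enzymes 3 were measured, and all 3 fell at 3, 12 and 30 h, where 17.4%, 13.2% and 15.2% of all probe sets were called down. At 6 h 1 of the 3 fell and at 9 h 2. DFR, which reduces dihydroflavonols on the way to anthocyanins, changed by -5.36 at 3 h (limma adjusted p 0.00118) and was at the floor with DEX. Of 17 listed phenylpropanoid and lignin enzymes 2 were measured. At 30 h CCR2, a cinnamoyl-CoA reductase, rose by 4.48 (limma adjusted p 0.00134), and HCT, an acyltransferase of lignin precursor synthesis, changed by 0.98, under the fold minimum (limma adjusted p 0.0444). The 1 measured gene of the brassinosteroid and sterol list, AT5G16010, fell at 3, 6, 9, 12 and 30 h, with a change of -4.24 at 9 h (limma adjusted p 1.23e-06). The 1 measured gene of the cutin and wax list, WSD1, a wax ester synthase, was not called. The P450 genes of the phenylpropanoid list other than CYP84A4 were not analysed here.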

How the data were processed

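Labelled RNA of each culture was hybridised to Affymetrix ATH1 arrays. The authors deposited log2 values, 1 per probe set and array. The submitters' processing notes name GCRMA, and its version is not given in the sources used here. The 22810 probe sets include 64 controls, which were left out. Probe sets were named from the platform's gene annotation and matched to RefSeq (TAIR10.1) by gene ID, which succeeded for all 26 members. RefSeq served for names and the order of genes. No sequences were used, and RefSeq start coordinates served only to set that order.

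Groups follow the labels, 3 arrays each, described there as biological replicates. Limma 3.58.1 in R 4.3.3 fitted 1 mean per group to all 69 arrays, with moderated statistics whose prior follows the mean signal, for 15 comparisons. P-values were adjusted over all 22746 probe sets. The number of arrays limits the precision. The fit was tested on simulated data.

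Alternatives were array centring, quantile normalization, leaving out dim probe sets, the compared arrays alone, a replicate block, a robust prior, no fold minimum, leaving out each array in turn and leaving out the 10 arrays out of place. Genes are named when called, up to 10 per direction and comparison, or when on a list. The members and lists were chosen with earlier results of these data known.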

Additional observations from a re-analysis of the deposited data

Results flagged for a closer look

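The test of the difference itself marked 9 results. At 9 h the DEX effect of the VND7 line minus that of the empty vector line was -2.91 ± 1.01 (log2, SE) for CYP71B34, -1.52 ± 0.28 for CYP71B28 and -1.42 ± 0.30 for CYP84A4 (limma adjusted p 0.0264, 6.5e-05 and 0.000432). At 12 h it was 1.89 ± 0.60 for CYP718, -2.88 ± 1.01 for CYP71B34, -1.24 ± 0.30 for CYP84A4 and -1.02 ± 0.28 for CYP71B28 (limma adjusted p 0.0229, 0.0424, 0.00315 and 0.00806). At 24 h it was -1.71 ± 0.30 for CYP84A4 (limma adjusted p 0.00171), and -1.49 without the arrays out of place.

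For CYP71B34, CYP71B28 and CYP718 the difference came with a call in the VND7 line and none in the empty vector line. For CYP84A4 the call was in the empty vector line. Within the VND7 line, the effect on CYP71B28 at 30 h minus that at 9 h was 1.22 ± 0.28 (limma adjusted p 0.00363). Groups of 3 arrays are too small for the search for single outlying arrays.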

How the results depend on the processing

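None of the 36 called single-gene results changed direction in the 555 alternatives run on them. They stayed called in 486 and were no longer called in 69. Of the counts of P450 calls, the following moved by more than 1.5 times. Without a fold minimum there were 8 at 3 h, 5 at 6 h and 1 at 24 h. With dim probe sets left out there were 2 at 9 h and 2 at 12 h, because CYP718 and CYP71B37 were no longer tested. With arrays centred on their median there were 2 at 12 h, 0 in the empty vector line at 12 h, 2 and 0 for the difference of lines at 12 and 24 h, and 0 for 30 h against 9 h. Quantile normalization gave 2 for the difference of lines at 12 h. Fitted on the compared arrays alone there were 2 at 12 h, 0 in the empty vector line at 9, 12 and 24 h, and 0 for the difference of lines at 24 h. Without the arrays out of place there were 6 at 24 h, 5 for the difference of lines at 24 h and 2 for 30 h against 9 h. The share of all probe sets called in these comparisons was then 30.4%, 27.5% and 13.5%. No count is given for 1 h, where only 1 DEX array remained. The 48 h comparison could not be run without the arrays out of place.

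Leaving out each array in turn gave 0 to 0 calls at 1 h, 3 to 4 at 3, 6, 9 and 12 h, 0 to 2 at 24 h, 3 to 5 at 30 h and 0 to 0 at 48 h. It gave 1 to 1 at each time of the empty vector line. For the difference of lines it gave 2 to 4 at 9 h, 1 to 4 at 12 h and 1 to 1 at 24 h, and for 30 h against 9 h it gave 1 to 2. The robust prior changed none of these counts.

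The labels number the replicates 1 to 3 in every group. Same-numbered arrays did not deviate together in a regular way, with correlations of -0.777 to 0.774 over 33 pairs. Of these pairs 8 exceeded 0.1, and in 0 of 11 comparisons did each exceed it. At 24 h the correlations were 0.729, 0.774 and -0.715. The comparisons at 1 and 24 h hold arrays out of place, so the check does not settle pairing there. The numbers are therefore taken as names. A fit with the replicate number as a block gave 4 P450 calls at 30 h in place of 5, because CYP71B24 had an adjusted p of 0.0525, and moved no other count. The 10 P450 genes at the floor in every group mean allow no statement on change. Of the other 14, CYP71B25 and CYP71B38 were at the floor in 20 and 21 of the 23 group means.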

Other observations

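CYP71B5 differed in level between the lines and was not called with DEX in either. In the VND7 line it ran from 4.94 to 7.10 over the 24 DEX arrays and from 4.74 to 6.59 over the 27 DMSO arrays. In the empty vector line it ran from 6.71 to 7.45 over the 9 DEX arrays and from 6.81 to 7.60 over the 9 DMSO arrays. The difference between the lines was not tested. The 0 h arrays of the VND7 line, which no comparison uses, read 6.00, 6.04 and 6.52.

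Some probe sets held the same value on several arrays, equal to 6 decimals. CYP718 held 2.28 on 24 arrays, CYP71B35 2.56 on 39, CYP84A4 3.13 on 13 and CYP71B28 5.68 on 8, all 8 of them DMSO arrays of the VND7 line. CYP71B6 and CYP71B23 had no recurring value.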
